A study of Mus musculus with 8 samples.

Results

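Egr1 and 9 other immediate early genes outside the AP-1 family (Ier2, Ier3, Dusp1, Klf2, Klf4, Klf6, Zfp36, Btg2 and Nr4a1) were followed through single hematopoietic stem cells (HSCs) of mice with and without Med23, a subunit of the Mediator complex. The 10 genes were named in advance of this account and looked up by symbol in a table of 10720 genes. The table held 9 of them, and Klf4 was not analysed here. They were selected with earlier summaries of the same values known, so every difference between the 2 labels below is a description and carries no test.

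All mice were adult C57BL/6 animals homozygous for a floxed Med23 allele, in which loxP sites flank the deleted part. Cells labelled WT came from littermates without the Mx1-cre transgene. Cells labelled KO (Med23-/-) came from mice carrying Mx1-cre, in which injected poly(I:C) switches on the recombinase. The Mx1 promoter responds to interferon and is active in many tissues and blood cells, so the deletion is not limited to HSCs. The study describes blood counts of both genotypes after poly(I:C). For the mice behind these libraries, treatment of the controls and the time from injection to sorting are not given in the sources used here. HSCs were sorted from bone marrow as Lin-Sca1+cKit+ cells that were CD150+CD34-CD48-, picked by hand, and read by 3' RNA sequencing with unique molecular identifiers (UMIs, tags that let copies of 1 molecule be counted once).

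The labels list 8 libraries, 4 per genotype, but the columns of the table name only the genotype and a cell number. Each genotype was therefore 1 pool, without a replicate. After the minimum of 2000 genes and 20000 UMIs per cell, 259 of 304 cells labelled WT and 234 of 282 labelled KO were kept, with 21475782 and 16180546 UMIs in all. Depth ran from 20038 to 496293 UMIs per cell in WT (median 59649) and from 20027 to 467384 in KO (median 50281). Levels are UMIs of a gene per 1000000 UMIs of the pool (CPM). Med23 itself had 122 UMIs in WT and 117 in KO, or 5.68 and 7.23 CPM. Of the KO UMIs 28 came from 1 cell, and without it KO had 5.52 CPM. The WT cell with the most Med23 held 14 UMIs. Without the top cell of each label, WT had 5.07 CPM and KO 5.52 CPM. The log2 ratio of KO over WT was 0.35 over all kept cells (counting interval -0.03 to 0.73). It was 0.12 (-0.30 to 0.54) without the top cell of each label. Fewer KO cells held a Med23 UMI, 27 (11.5%) against 47 in WT (18.1%), or 7.26% against 9.27% after each cell was thinned to 20000 UMIs. The pooled level over all kept cells was thus not lower in KO, and the intervals of the shares at equal depth overlapped. A 3' read does not show whether an upstream exon is missing, so "KO" is used below as a label. All 9 HSC markers looked for were in the table, Kit with 3367 UMIs in WT and 1858 in KO, and their log2 ratios ran from -2.26 (Slamf1) to 1.14 (Mecom). Of other cell types, 2 of 7 neutrophil markers were in the table with 23.6 CPM in WT and 11.4 CPM in KO in sum, 2 of 7 macrophage markers with 32.0 and 59.1, 5 of 8 of stroma and endothelium with 70.5 and 99.4, 2 of 5 erythroid with 10.1 and 63.5, and 1 of 6 of B and T cells with 55.4 and 86.3. The erythroid gene Car1 had 3 UMIs in WT and 989 in KO, of which 1 cell held 955, while the erythroid factor Klf1 had 213 and 39. The collagen gene Col1a1 had 345 and 4. Their part in the members' values was not tested. An excess of oocyte transcripts in some WT cells touches several values and is given below for the members and for some of the other genes.

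Immediate early genes are transcribed within minutes of a stimulus, without the need for new protein. Growth factors and stress act on them largely through the ERK kinases, which phosphorylate ternary complex factors such as Elk1 on promoters bound by serum response factor (SRF), and through CREB at cyclic AMP response elements. MED23 is known as the Mediator subunit that contacts phosphorylated Elk1, and Egr1 is the gene at which that contact was worked out. Egr1 encodes a zinc finger transcription factor with a described role in keeping HSCs quiescent in the marrow. The other members include transcription factors (Klf2, Klf4, Klf6 and the nuclear receptor Nr4a1), inhibitors that close the response again (the ERK and p38 phosphatase Dusp1, the mRNA decay factor Zfp36 and the antiproliferative factor Btg2) and the early response genes Ier2 and Ier3. Immediate early genes are also known to be induced by the handling of tissue before lysis.

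Short promoter stretches are shown because the inputs named above act at such sites. Promoters were taken from a RefSeq table of mouse build GRCm38.p6, as 300-base windows from 250 bases before to 50 bases after the transcription start. The table holds windows for 7 of the 9 measured members, and for Egr1 and Ier2 none is shown. The search covered 5 motifs on both strands, namely the EGR site GCGNGGGCG, the cyclic AMP response element TGACGTCA (CRE), the CArG box bound by SRF, the ETS core CCGGAA of the family to which Elk1 belongs, and the TATA box TATAAA. In the stretches that follow, written 5' to 3' along the gene's own strand, capitals mark an EGR site, a CRE or a CArG box. The EGR site is in capitals for Klf2, Zfp36, Btg2 and, as its reverse complement, Nr4a1. A CRE is in capitals for Dusp1 and Btg2, where it comes before the EGR site, and a CArG box for Zfp36, where it comes last.
Dusp1, chr17:26508602-26508621, minus strand: ggcgggTGACGTCAccgccc
Klf2, chr8:72318857-72318877, plus strand: ccggccGCGGGGGCGgggctt
Zfp36, chr7:28379271-28379339, minus strand: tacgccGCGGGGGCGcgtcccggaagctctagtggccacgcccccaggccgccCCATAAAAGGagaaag
Btg2, chr1:134079272-134079327, minus strand: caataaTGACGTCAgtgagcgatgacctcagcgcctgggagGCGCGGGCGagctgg
Nr4a1, chr15:101266780-101266800, plus strand: cagtggCGCCCCCGCccctct

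The EGR site was in 4 of the 7 windows, against 5.55% of all 32851 mouse promoter windows in the table and 11.5% of the 15291 windows at least as rich in G and C as the least rich member. The CRE was in 2 of the 7, against 1.79% and 2.90%, and the CArG box in 1 of the 7, against 1.63% and 1.23%. The ETS core was in 2 of the 7 (Zfp36 and Nr4a1), against 14.9% and 23.9%, and the TATA box in none. No motif overlapped another where they are shown together. These are matches of letters in a fixed window, and say nothing of whether a factor was bound in these cells. In the same annotation the 9 measured members were short genes. Their spans ran from 1199 bases (Ier3) to 20894 (Nr4a1) with a median of 2882, all below the table's median of 22197, and Egr1 spanned 3750.

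Egr1 had 472 UMIs in WT and 136 in KO. That is 22.0 CPM (exact 95% Poisson interval 20.0 to 24.1) against 8.41 CPM (7.05 to 9.94), a log2 ratio of KO over WT of -1.39 (exact interval -1.67 to -1.11), or 2.61-fold lower in KO. All intervals here cover counting error alone and leave out how far animals or libraries differ. Without the single cell holding the most Egr1 (a WT cell) the ratio was -0.95. The ratio over all kept cells stood at the 5.29th percentile of the 10720 genes.

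These Egr1 molecules came from few cells. Of the 259 WT cells 40 held an Egr1 UMI, and of the 234 KO cells 23 did, so the median cell of either label had none. The 5 WT cells with the most held 127, 63, 43, 40 and 23 UMIs, together 62.7% of the pool, and the 5 KO cells with the most held 47, 22, 20, 11 and 7, together 78.7%. The highest cells of the 2 labels were at a like level per depth, 588 CPM in WT and 592 CPM in KO. Among cells with Egr1, the median was 3.5 UMIs in WT and 1 in KO.

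To set depth aside, each cell was thinned to 20000 UMIs. Egr1 was then detected in 11.2% of WT cells (29 of 259, exact binomial interval 7.63 to 15.7%) and in 7.26% of KO cells (17 of 234, 4.29 to 11.4%). The share was thus lower in KO by 3.93 percentage points. The interval of KO minus WT ran from -9.30 to 1.43 points, so the counting of cells alone did not settle its direction. These intervals cover the counting of cells within each pool, and with 1 pool per label no test of the difference was possible.

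The 8 other measured members all had a higher CPM in the pool labelled KO. Of these, 5 of 8 were at least 2-fold higher, against 6.98% of all genes, and 8 of 8 had an interval above 1, against 39.2%. Zfp36 lies very near 2-fold, and the count was 4 of 8 under 8 of 12 other settings, both other scalings among them, and ran from 3 to 6 over all 12. None of the 8 was at least 2-fold lower, which Egr1 was along with 7.94% of all genes, and Egr1 alone among the members had an interval below 1, as had 35.7%. Since the genes were selected on this contrast, nothing is read from these counts. The median log2 ratio of the 8 was 1.10, between 0.58 for Ier2 and 1.83 for Klf2, beside 0.02 over all genes, where the 5th and 95th percentiles were -1.45 and 1.18. Egr1 was 2.48 log2 units under the median of the others.

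**Figure D1:**
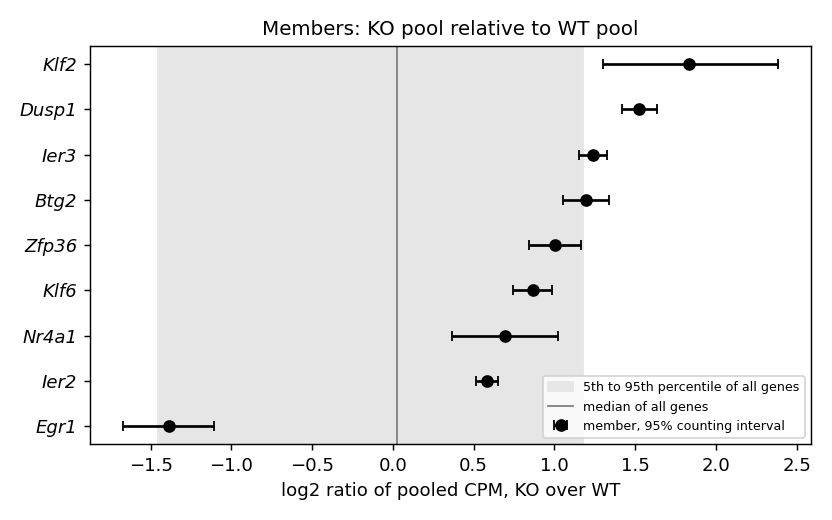
Log2 ratio of pooled CPM, KO over WT, for each measured member (points) with its exact 95% counting interval (lines), over a band that spans the 5th to 95th percentile of all 10720 genes. Egr1 lies at -1.39, and the other 8 lie between 0.58 and 1.83.

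Among the members that damp the response, Dusp1, which dephosphorylates MAP kinases, had 1014 UMIs in WT and 2197 in KO. Its level was 47.2 CPM in WT and 136 CPM in KO, a log2 ratio of 1.52 (1.42 to 1.63), or 2.88-fold. Btg2, which recruits deadenylases to mRNA and slows the cell cycle, had 641 and 1105 UMIs, or 29.8 and 68.3 CPM, a log2 ratio of 1.19 (1.05 to 1.34). Zfp36, or tristetraprolin, which binds AU-rich elements and speeds mRNA decay, had 523 and 789 UMIs, or 24.4 and 48.8 CPM, with an interval of 0.84 to 1.16 around its log2 ratio. All 3 inhibitors were at least 2-fold higher in KO, Zfp36 only just.

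Of the transcription factors, Klf6 was the best covered, with 962 UMIs in WT and 1320 in KO. It stood at 44.8 and 81.6 CPM, a log2 ratio of 0.86 (0.74 to 0.99). Nr4a1, an orphan nuclear receptor, was sparse, with 142 UMIs in WT and 173 in KO, or 6.61 and 10.7 CPM, and a log2 ratio of 0.69 (0.36 to 1.02). Klf2, a factor known for quiescence in lymphocytes and endothelium, had the largest ratio and the fewest molecules, 41 UMIs in WT and 110 in KO. Its log2 ratio was 1.83 (1.30 to 2.39), but 1 WT cell held 34 of the 41 UMIs (82.9%) and 1 KO cell 39 of the 110 (35.5%). Without the top cell of each label Klf2 had 7 UMIs in WT and 71 in KO, a log2 ratio of 3.75 (2.63 to 5.12), so the size of its ratio is set by single cells.

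The early response genes Ier2 and Ier3 had the most UMIs of the members. Ier2 had 3264 UMIs in WT and 3679 in KO, or 152 and 227 CPM, the smallest ratio of the 8 at 0.58 (0.51 to 0.65). Ier3, which is known to act on ERK signalling and survival, had 1689 and 3006 UMIs, or 78.6 and 186 CPM, a log2 ratio of 1.24 (1.15 to 1.33). Of the pair, Ier3 was past 2-fold and Ier2 was not.

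The members with most UMIs were spread over many cells. The median WT cell had 104 CPM of Ier2 and 6.50 CPM of Ier3, and the median KO cell 139 and 100.1 CPM. Dusp1 was at 0 in the median WT cell and at 21.7 CPM in the median KO cell, and the remaining members were at 0 in the median cell of both labels. The highest single cells reached 677 CPM of Dusp1 in WT and 1748 CPM in KO, and 366 and 1239 CPM of Btg2. The 2 labels overlapped for every member, since cells without a UMI were found in both.

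**Figure D2:**
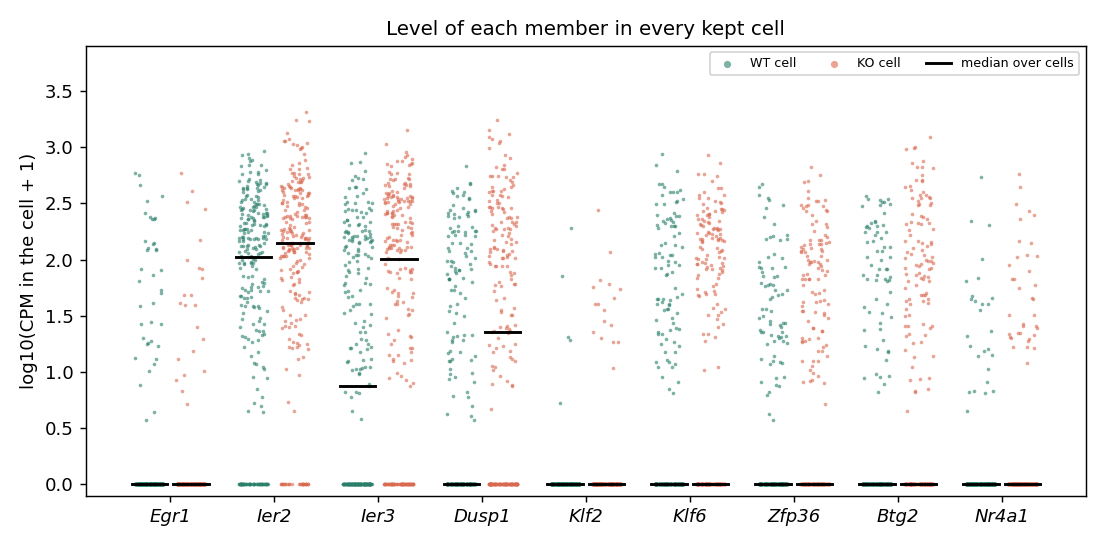
CPM of each measured member in every kept cell, WT and KO side by side, as log10 of CPM plus 1, with a bar at the median over cells. Cells of the 2 labels overlap throughout, Egr1 is 0 in most cells of both, and its highest cells reach 588 CPM in WT and 592 CPM in KO.

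At 20000 UMIs per cell, each of the 8 was found in a larger share of KO cells. Ier2 went from 66.8% of WT cells (60.7 to 72.5%) to 78.6% of KO cells (72.8 to 83.7%), and Ier3 from 41.3% (35.3 to 47.6%) to 62.0% (55.4 to 68.2%). Dusp1 was in 29.0% and 46.2%, Klf6 in 27.8% and 42.3%, and Btg2 in 19.3% and 36.3%. These members were therefore found in more cells of the KO pool at equal depth, and not in the highest cells alone. Zfp36 was in 15.4% and 34.6% and Nr4a1 in 4.63% and 12.0%. Klf2 was in 1.54% (0.422 to 3.91%) and 4.27% (2.07 to 7.72%), from 4 WT cells and 10 KO cells.

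**Figure D3:**
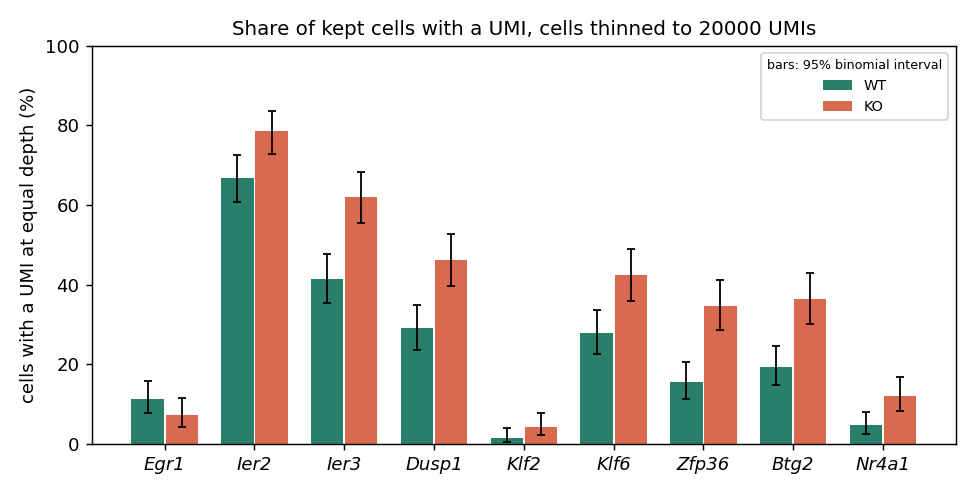
Share of cells with at least 1 UMI of each measured member after thinning to 20000 UMIs per cell, with exact 95% binomial intervals, for 259 WT and 234 KO cells. Egr1 is at 11.2% in WT and 7.26% in KO, while each other member is higher in KO.

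Within single cells, the 8 others summed to a median of 301 CPM in WT (quartiles 142 and 528, highest 2437) and 615 CPM in KO (quartiles 321 and 1042, highest 3500). After thinning, the median WT cell held UMIs of 2 of the 8 genes and the median KO cell of 3. None of the 8 was found in 25 WT cells (9.65%) and 5 KO cells (2.14%), and 5 or more were found in 11 WT cells (4.25%) and 39 KO cells (16.7%).

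Oocyte transcripts moved with the WT label. Of the WT cells, 57 (22.0%) had over 1000 CPM of 15 oocyte markers, and 1 KO cell did. The summed level of those markers was 1840 CPM in WT and 115 CPM in KO, all 15 being in the table. The 57 cells held 23.2% of the WT UMIs but 52 of the 472 Egr1 UMIs, which is 10.4 CPM against 25.5 CPM in the other WT cells. Without them the Egr1 log2 ratio was -1.60 (-1.89 to -1.31). They held 35.0% of the Dusp1 and 32.8% of the Btg2 UMIs of WT, and without them Dusp1 was at 1.77 and Btg2 at 1.38. Leaving them out gave 0.56 for Ier2, 1.18 for Ier3, 1.45 for Klf2, 0.85 for Klf6, 0.95 for Zfp36 and 0.71 for Nr4a1, so each member kept its side of 0 without these cells.

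The Egr1 ratio was not the same at every depth. Cells of 20000 to 40000 UMIs (83 WT and 90 KO) held 25 Egr1 UMIs in WT and 45 in KO, a log2 ratio of 0.77 (0.03 to 1.53), with 22 of the 45 KO UMIs in 1 cell. Without that cell the ratio was -0.18 (-1.06 to 0.69), and without the top cell of each label 0.27 (-0.68 to 1.25). Egr1 was found in 10 WT and 8 KO cells of that range. Cells of 40000 to 80000 UMIs (75 and 84) held 140 and 31, a ratio of -2.34 (-2.95 to -1.77). Cells of over 80000 UMIs (101 and 60) held 307 and 60, a ratio of -1.61 (-2.04 to -1.21). Without the single top cell of each range these 2 ratios were -1.83 and -0.86, and without the top cell of each label -3.31 and -3.05. Cells of over 40000 UMIs thus had less Egr1 in KO with or without single top cells. Among cells of 20000 to 40000 UMIs the direction changed with which top cells were left out. Nr4a1 had ratios of 1.31, 3.01 and -0.70 in the same order of ranges, the last from 114 UMIs in 16 WT cells and 42 in 4 KO cells. Without the cell with the most Nr4a1, that last ratio was -0.13 (-0.71 to 0.43), and without the top cell of each label -1.29 (-2.12 to -0.54).

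With all cells counted, the remaining members kept 1 direction over the 3 ranges, leaving aside Klf2, which had 2 WT UMIs or fewer in the shallower ranges. Dusp1 was at 1.74, 0.77 and 1.75, and Btg2 at 2.22, 1.14 and 0.54. In the last range 1 KO cell held 150 of the 364 KO UMIs of Btg2. Without that cell the Btg2 ratio was -0.16 (-0.41 to 0.08), and without the top cell of each label 0.04 (-0.21 to 0.29). The direction of Btg2 over 80000 UMIs thus rested on single cells. Ier2 was the steadiest, at 0.57, 0.47 and 0.57, and Ier3 was at 0.97, 0.83 and 1.46. Klf6 had ratios of 0.74, 0.37 and 1.04 and Zfp36 of 1.51, 0.82 and 0.87. The depth of a cell also carries its RNA content, and the part of either in the ratios was not tested.

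**Figure D4:**
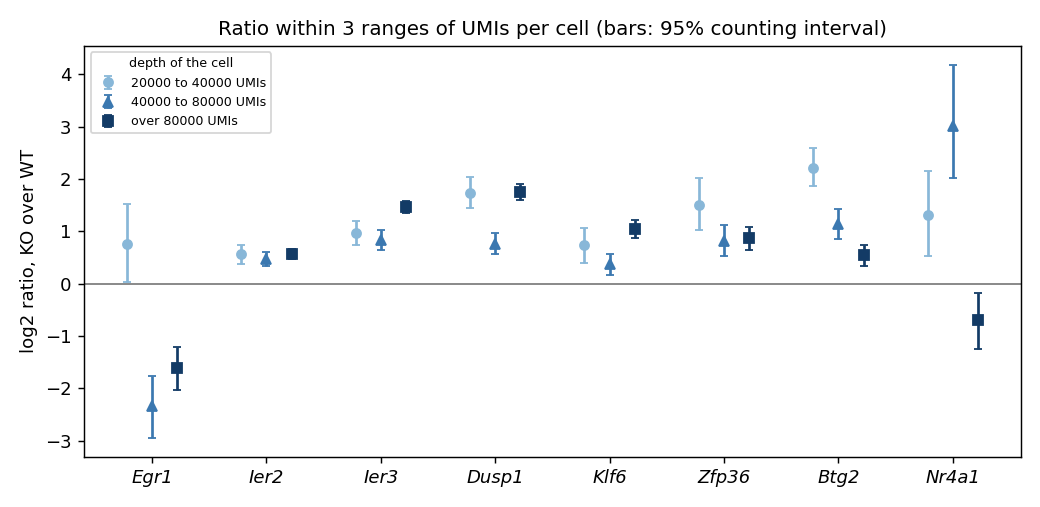
Log2 ratio of pooled CPM, KO over WT, within 3 ranges of UMIs per cell, with exact 95% counting intervals, for the measured members other than Klf2, which had 2 and 5, 1 and 11, and 38 and 94 UMIs in the ranges. Egr1 is at 0.77 in the range of 20000 to 40000 UMIs, where 1 cell held 22 of 45 KO UMIs, and at -2.34 and -1.61 in the deeper ones.

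Cells with Egr1 often held other members too. At equal depth, Dusp1 was found in 18 of the 29 WT cells with Egr1 (62.1%, 42.3 to 79.3%) and in 57 of the 230 without (24.8%, 19.3 to 30.9%). In KO it was found in 14 of 17 (82.4%, 56.6 to 96.2%) and in 94 of 217 (43.3%, 36.6 to 50.2%). Nr4a1 was found in 5 of 29 (17.2%) and 7 of 230 (3.04%) WT cells, and in 7 of 17 (41.2%) and 21 of 217 (9.68%) KO cells. In both labels, then, the share with Dusp1 and the share with Nr4a1 were higher among cells with Egr1. Ier2 was found in 79.3% of WT cells with Egr1 and 65.2% without, and in 94.1% and 77.4% in KO. The shares with Ier3, Klf2, Klf6 and Btg2 were also higher among cells with Egr1 in both labels, with overlapping intervals. Zfp36 was found in 27.6% and 13.9% in WT. In KO it was in 4 of 17 (23.5%, 6.81 to 49.9%) and 35.5% (29.1 to 42.2%), where the intervals overlap.

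Spearman correlations of thinned counts across cells were weak throughout and are given as a description, since all cells of a label share its pooled libraries. Egr1 and the 8 others had a median rho of 0.15 over 259 WT cells (0.06 to 0.23) and 0.14 over 234 KO cells (-0.06 to 0.27). The 28 pairs among the 8 others had medians of 0.08 (-0.05 to 0.20) and 0.09 (-0.04 to 0.30). The highest for Egr1 were Dusp1 in WT (0.23) and Nr4a1 in KO (0.27). Genes with a mean of at least 0.5 thinned UMIs were ranked by the same measure. In WT the 5 most like Egr1 of 5529 included Tma16 (0.26), the AP-1 gene Fos (0.25), Dhodh (0.24) and Dusp1 (0.23), where the median gene had 0.01. In KO the 5 of 5615 were Fos (0.33), the stress phosphatase regulator Ppp1r15a (0.31), Dusp1 (0.27), Ier2 (0.25) and Gm10863 (0.23). Fos and Dusp1 were thus among the 5 in each label, while their pooled ratios were 1.65 and 1.52, opposite in sign to that of Egr1.

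The genes around the members were taken from lists chosen by function, not by their values in this table, though with results of these data known. For the counts that follow, 6.98% of all genes were at least 2-fold higher in KO and 7.94% at least 2-fold lower. All 6 AP-1 genes measured (of 8 listed) were at least 2-fold higher in KO, with a median log2 ratio of 1.30, from 1.08 for Junb to 3.11 for Fosb (37 and 241 UMIs). Without the cells with oocyte transcripts 5 of the 6 were. Of 21 further immediate early genes 14 were higher in KO and 7 lower, 5 and 2 of them by at least 2-fold, with a median of 0.29. Among those higher were the cytokine signal inhibitor Socs3 (80 and 234 UMIs, 1.96) and the kinase Pim1 (282 and 655, 1.62). Among those lower were the repressor Nfil3 (94 and 26, -1.45) and Id3, an inhibitor of E proteins, with 305 UMIs in WT and 1 in KO. Of the 305, 249 lay in the 57 cells with oocyte transcripts. Egr1 was therefore not the only early gene of lower level in the KO pool, where 5158 of all 10720 genes were lower. Relatives of the members, such as other KLF and ZFP36 genes, had a median of 0.06, with 8 of 16 higher, Zfp36l1 at 0.97 (131 and 193 UMIs) and Klf1 at -2.04.

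Genes that feed the response differed by less than 2-fold, with 1 exception. Of the 24 ERK, SRF and CREB pathway genes measured, 24 were higher in KO, where 5562 of all 10720 genes were. An interval above 1 was found for 14 of the 24, against 39.2% of all genes, and an interval below 1 for none. At least 2-fold higher was 1 of the 24, against 6.98% of all genes. The median was 0.25, and the kinase genes Rps6ka3 and Rps6ka1 were at 0.92 and 0.82. The gene past 2-fold was Srf itself (114 and 203 UMIs, 1.24). Elk1, the partner of MED23, was at 0.19 (151 and 130 UMIs, -0.16 to 0.54), and the kinase Map2k2 at 0.01. Among the 12 measured ERK feedback inhibitors and EGR corepressors, 7 were higher and 5 lower. Spred2 was at 1.64 (62 and 146 UMIs) and Spry4 at -4.20 (122 and 5), while the EGR corepressors Nab1 and Nab2 were at -0.26 and 0.02. The 57 WT cells with oocyte transcripts held 66 of the 122 WT UMIs of Spry4 and 364 of the 985 of Nab1. Without cells of that kind Spry4 was at -3.46, Nab1 at 0.02, Elk1 at -0.10 and Map2k2 at -0.15. The median of the 24 pathway genes was then 0.34, though not all of them were higher.

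Genes described as Egr1 targets were taken as 1 list, without sorting those that Egr1 raises from those that it lowers. Their signs are therefore not read against that of Egr1. Of 6 measured, 5 were higher in KO and 1 lower, none by 2-fold, with a median of 0.47. The cell cycle inhibitor Cdkn1a was at 0.73 (510 and 638 UMIs), Bmi1 at 0.63 and Trp53 at -0.09. The 57 WT cells of high oocyte marker level held 280 of the 510 WT UMIs of Cdkn1a. With cells of that kind left out, 2 of the 6 were at least 2-fold higher, Cdkn1a and Bmi1 (1.07). NF-kB primary response genes had a median of 0.17, with 6 of 11 higher, Rel at 2.04 (91 and 281 UMIs) and the chemokine Cxcl2 at -0.78 (249 and 109). Of the 249 WT UMIs of Cxcl2, 1 cell held 245. Heat shock genes, which are known to rise on stress of cells in handling, had a median of -0.10, with 3 of 10 higher. Hsph1 had the highest ratio among them at 0.13 (432 and 356 UMIs), and Hspb1 had 142 UMIs in WT and 2 in KO.

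**Figure D5:**
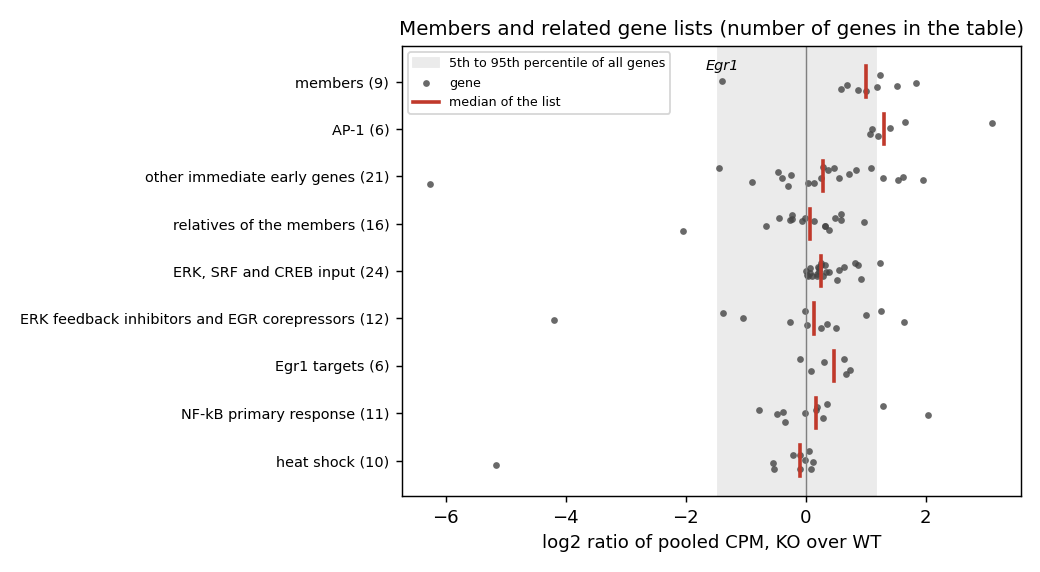
Log2 ratio of pooled CPM, KO over WT, for each gene (points) of the members and of 8 related lists, with the median of each list (bars) over a band that spans the 5th to 95th percentile of all genes. The AP-1 list has a median of 1.30 and heat shock genes one of -0.10, and Egr1 at -1.39 is the only member left of 0.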

How the data were processed

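Expression was measured by 3' single-cell RNA sequencing with UMIs in 8 libraries. The values that the authors deposited are log2 of a normalized UMI count plus 1, in 1 table of 10720 genes and 586 cells. The build was mm9 per the submitters' processing notes, and the aligner and the normalization method are not given in the sources used here. Once the log2 was reversed, every value of a cell was a whole number of steps, the step being its lowest value above 0, which gave the UMI counts back (100% whole within 0.01 of a count, largest distance 0.00302). Genes with a low mean count had been removed before deposit (lowest mean here 0.201).

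Cells with at least 2000 genes and 20000 UMIs, counted over the genes of the deposited table, were kept. UMIs were summed per genotype and divided by all UMIs of that pool (CPM), and pooled counts under 3 were raised to 3 for a ratio. Ratios and shares have exact Clopper-Pearson intervals and CPM exact Poisson intervals at 95%. Thinning drew 20000 UMIs per cell without replacement. With 1 pool per label no test was run. Columns carry no library or barcode, so barcodes shared between libraries could not be counted, and 0 columns lacked a genotype. Cells were picked by hand, so no doublet caller was run, and cells were not clustered. The calculations were tested on simulated data. Promoters and gene spans came from RefSeq tables of GRCm38.p6, matched by symbol with no conversion of coordinates. Python 3.11.15, numpy 2.4.6, scipy 1.17.1, pandas 2.3.3 and matplotlib 3.10.9 were used.

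The members and the lists were chosen with earlier results of these data known. Named genes were all measured members, the 5 genes most like Egr1 per label (1 of which is not reported here), and for each list the genes with the highest and lowest ratio among those with at least 50 pooled UMIs, together with genes that have a role named in the text, which were chosen after their values were seen.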

Additional observations from a re-analysis of the deposited data

How the results depend on the processing

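No paired analysis was possible because columns name a genotype and a cell but no library, and no test was made. Nor could a library be left out in turn, and an analysis without the gene filter was not run, since the table was filtered before deposit. Scaling by median ratios or upper quartiles moved all log2 ratios by -0.03, which took Zfp36 under 2-fold and left 4 of the 8. Over 18 alternatives Egr1 ran from -3.31 to 0.77. With each cell thinned to 20000 UMIs it was at -1.10 and the median of the other 8 at 1.46, and without the single cell holding the most Egr1 UMIs it was at -0.95. In cells of 20000 to 40000 UMIs Egr1 turned to 0.77, with -0.18 once the single top cell of that range was left out and 0.27 once the top cell of each label was. In cells of 40000 to 80000 UMIs Egr1 was at -2.34, the median of the others at 0.83, and 3 of the 8 were at least 2-fold higher in place of 5. Over 80000 UMIs Nr4a1 turned to -0.70. Leaving out the top cell of each label, an alternative chosen after seeing the data, gave -1.55 for Egr1. The same choice within depth ranges, also added then, gave -3.31 at 40000 to 80000 UMIs and -3.05 above, or -1.83 and -0.86 without only the single top cell. The other 7 members kept their direction in all 12 alternatives run for them. Those 12 do not include leaving out top cells within depth ranges. There Btg2 over 80000 UMIs was at -0.16 without the single top cell. Klf2 at 20000 to 40000 UMIs was at -0.08 without the top cell of each label. For these changes the cause was not tested. The sparse counts of Klf2 and Nr4a1, and of Egr1 in shallow cells, limit what can be said of them.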

Other observations

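The 93 cells under the minimum, as counted over the genes left after filtering, were 45 WT and 48 KO. They enter the comparisons above only in the alternative that used every cell, where Egr1 was at -1.33. That alternative is 1 of the 18 for Egr1 and 1 of the 12 for the other members. By themselves the 93 cells held 21 Egr1 UMIs in WT and 14 in KO, a log2 ratio of -0.73 (-1.81 to 0.32), which counting error alone spans. Dusp1 had 56 and 125 UMIs (1.02), Klf6 33 and 79 (1.12), Ier3 78 and 135 (0.65), and Ier2 76 and 115 UMIs. Btg2 had 8 and 50 UMIs, a log2 ratio of 2.50. Nr4a1 had 1 UMI in WT and 31 in KO.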
